A study of Mus musculus with 8 samples.

Results

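Genes of lipoprotein structure and assembly were described in the liver transcriptome of Stab1 knock-out and wild-type mice. The members are picked by gene symbol from a list made with earlier results of these data known. The group holds 10 genes, Apoa1, Apoa2, Apoa4, Apoa5, Apob, Apoc1, Apoc3, Apoe, Apom and Mttp, of 19348 genes in the deposited table. Each stands on 1 row of that table. RNA of whole liver was sequenced from 5 libraries of Stab1 knock-out mice and 3 libraries of wild-type mice, all 5 weeks old and with no treatment named in the labels. Stabilin-1, the product of Stab1, clears ligands from blood on liver sinusoids and on subsets of macrophages. The labels give no strain, sex, knock-out allele or link between a library and an animal, so the spread that p-values rest on here is that among libraries and could be partly technical. No member of the group passed an adjusted p of 0.05 between the genotypes.

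The liver packages triglyceride and cholesterol into very low density lipoproteins, each built on a molecule of apolipoprotein B that is lipidated by the microsomal triglyceride transfer protein in the endoplasmic reticulum. It also secretes apolipoproteins A-I and A-II, the main proteins of high density lipoproteins, which take up cholesterol from tissues. Smaller exchangeable apolipoproteins move between particles and set how fast lipases and receptors act on them. In mouse liver these transcripts come mainly from hepatocytes. Apoe is also made by macrophages, and Apoa1, Apoa4, Apob and Mttp are also made by the intestine.

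Library totals ran from 4.85 M to 10.5 M reads (M for mega) in Stab1 knock-out livers and from 10.1 M to 10.8 M reads in wild-type livers. Stab1 held 5 to 16 reads in each knock-out library and 474 to 594 in each wild-type library. Knock-out library 1 stood apart. It was the shallowest, and it held 3 reads of Xist and 320 of the Y-linked gene Ddx3y. Each of the other 7 libraries held at least 4445 Xist reads and at most 4 Ddx3y reads. By these reads knock-out library 1 was male and the other 7 were female. Fits without knock-out library 1 thus leave out the only male library, and the part of sex was not tested. Wild-type library 3 lay nearer to knock-out libraries 2 to 5 than to the other wild-type libraries in several members, and those values are given with each gene. Marker genes of hepatocytes were present in every library and none was at 0. Their summed level over 14 genes was 115346 to 175262 CPM (read counts per mega-read of scaled library size) in knock-out and 185022 to 200054 CPM in wild-type livers. Of that sum, albumin averaged 86938 CPM in knock-out and 123190 CPM in wild-type livers. Albumin alone took 4.91% to 10.2% of the reads in knock-out and 11.6% to 12.9% in wild-type libraries. In the tests described below, 3 of the 14 markers had higher and 11 lower fitted levels in knock-out livers. Of the 14, 0 were called by edgeR and 1, Tat, was called lower by DESeq2. Over the whole table edgeR called 0.227% of tested genes, and DESeq2 called 68 of 17474 fitted genes lower and 66 higher. In whole tissue, fewer cells of a type and less RNA per cell cannot be told apart.

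Apoa1, Apoc3, Apoa4 and Apoa5 are neighbours on mouse chromosome 9, and Apoc1 and Apoe are neighbours on chromosome 7. The levels of the chromosome 9 neighbours are compared with one another over the libraries, so the sequences before 3 of their starts are shown. They are the 250 bases upstream of the annotated start on the plus strand, from RefSeq on build GRCm38.p6, at chr9:46228380-46228629 for Apoa1, chr9:46240594-46240843 for Apoa4 and chr9:46268358-46268607 for the first of the Apoa5 starts. Capitals mark matches to TATAAA, the TATA box letters, or to CAAAGNNCA, letters that cover the core of sites bound by the nuclear receptor HNF4A, on either strand.
Apoa1: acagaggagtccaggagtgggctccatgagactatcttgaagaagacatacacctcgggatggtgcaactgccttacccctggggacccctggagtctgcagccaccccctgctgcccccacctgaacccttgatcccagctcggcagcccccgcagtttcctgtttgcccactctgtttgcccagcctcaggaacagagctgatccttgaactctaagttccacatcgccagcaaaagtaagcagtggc
Apoa4: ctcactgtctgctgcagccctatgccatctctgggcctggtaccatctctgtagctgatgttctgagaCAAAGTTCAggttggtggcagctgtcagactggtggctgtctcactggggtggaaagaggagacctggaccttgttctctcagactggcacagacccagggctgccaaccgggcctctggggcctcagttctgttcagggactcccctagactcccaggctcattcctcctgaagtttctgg
Apoa5: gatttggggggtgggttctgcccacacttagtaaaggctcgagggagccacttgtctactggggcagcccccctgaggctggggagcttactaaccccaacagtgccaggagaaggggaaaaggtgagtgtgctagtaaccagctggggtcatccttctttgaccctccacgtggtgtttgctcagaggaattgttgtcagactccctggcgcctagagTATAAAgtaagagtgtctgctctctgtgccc
The Apoa4 window holds CAAAGNNCA from base -182 to -174, and the Apoa5 window holds TATAAA from base -31 to -26. Bases are counted back from the start. Among 32536 different windows of the same length in the RefSeq table, 5.51% hold CAAAGNNCA and 12.3% hold TATAAA. Another motif with letters of the HNF1 core, GTTAAT, occurs in 6.47% of those windows and in none of the 3 printed here. The matches do not overlap one another. These are descriptions of letters and not of bound sites. Apoc3 had no entry among the annotated starts used here, so the letters before it were not searched.

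All 10 genes were deeply sequenced, with the lowest single count at 840 reads, for Apoa4 in knock-out library 1. Reads covered 89.5% or more of the length of each gene in every library. Per length, in RPKM (read density along the gene as a share of its library), the genes spanned a range from Apoa2 and Apoe at the top to Mttp at the bottom. Apoa2 averaged 15424 ± 2781 RPKM in Stab1 knock-out livers (SD, n = 5) and 11382 ± 3267 RPKM in wild-type livers (SD, n = 3). Mttp averaged 65.1 ± 9.48 RPKM in knock-out and 80.4 ± 4.23 RPKM in wild-type livers. The order by mean RPKM in knock-out livers was Apoa2, Apoe, Apoa1, Apoc1, Apoc3, Apoa5, Apob, Apom, Apoa4 and Mttp. In wild-type livers it was Apoe, Apoa2, Apoa1, Apoc1, Apoc3, Apom, Apoa5, Apob, Apoa4 and Mttp. Neighbours in these orders whose library values overlapped were Apoa2 and Apoe, Apoa5 and Apob in both genotypes, Apoc1 and Apoc3, Apob and Apom, and Apom and Apoa4 in knock-out livers, and Apom and Apoa5 in wild-type livers.

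Together the 10 genes took 4.63% ± 0.32 of counted reads in Stab1 knock-out livers (SD, n = 5) and 3.91% ± 0.34 in wild-type livers (SD, n = 3). In knock-out libraries 1 to 5 the share was 4.15%, 4.71%, 4.66%, 5.05% and 4.59%, and in wild-type libraries 1 to 3 it was 3.59%, 3.89% and 4.27%. The groups overlapped, because knock-out library 1 lay below wild-type library 3. Exact 95% intervals for counting error were narrow, for example 4.13% to 4.16% in knock-out library 1. Apoe, Apoa1, Apoa2 and Apob made up most of this share in every library. Of reads outside the 20 most abundant other genes, the members took 5.94% ± 0.53 in knock-out and 5.25% ± 0.40 in wild-type livers, again with overlap.

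**Figure D1:**
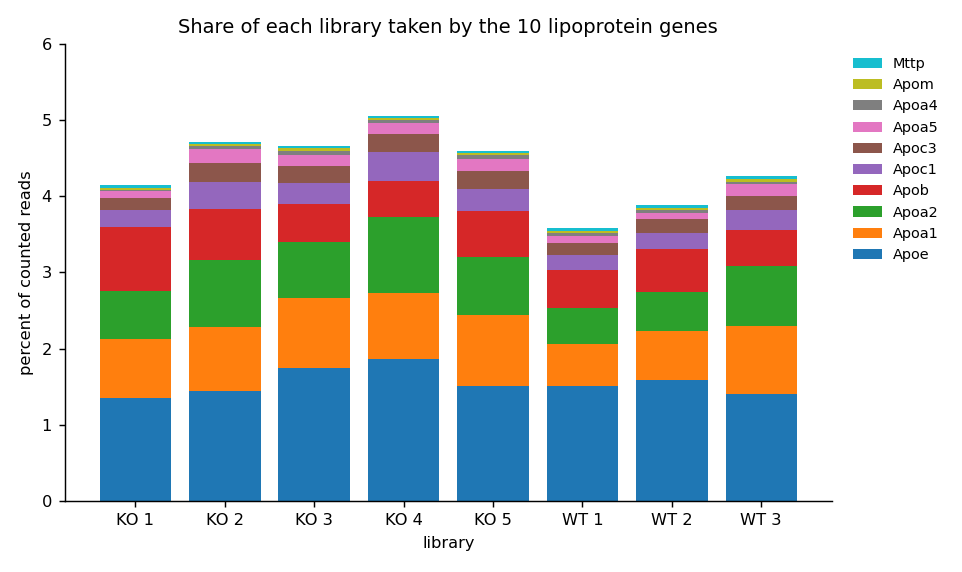
Stacked bars give the percent of all counted reads that each of the 10 lipoprotein genes took in each library (5 Stab1 knock-out libraries, KO, then 3 wild-type libraries, WT). The total is 4.15% to 5.05% in knock-out and 3.59% to 4.27% in wild-type libraries.

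Counts were compared between genotypes with the edgeR quasi-likelihood test, fitted on 12338 genes and adjusted over all of them by the Benjamini-Hochberg method. Of the 10 members, 0 passed an adjusted p of 0.05, where 0.227% of all tested genes did, 0.0729% higher and 0.154% lower in knock-out livers. DESeq2 also called 0 members, where it called 134 of 17474 fitted genes over the whole table, 66 higher and 68 lower. At an unadjusted p of 0.05, 1 member passed, Apoc1, against 13.6% of all tested genes. Fitted log2 fold changes of knock-out over wild type were positive in 8 members and negative in Apom and Mttp. Their median was 0.27, while the median over all tested genes was -0.01 and 49.1% of tested genes were positive. Levels below are in CPM with the TMM scaling of library size, and each log2 fold change is a difference on that scale.

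**Figure D2:**
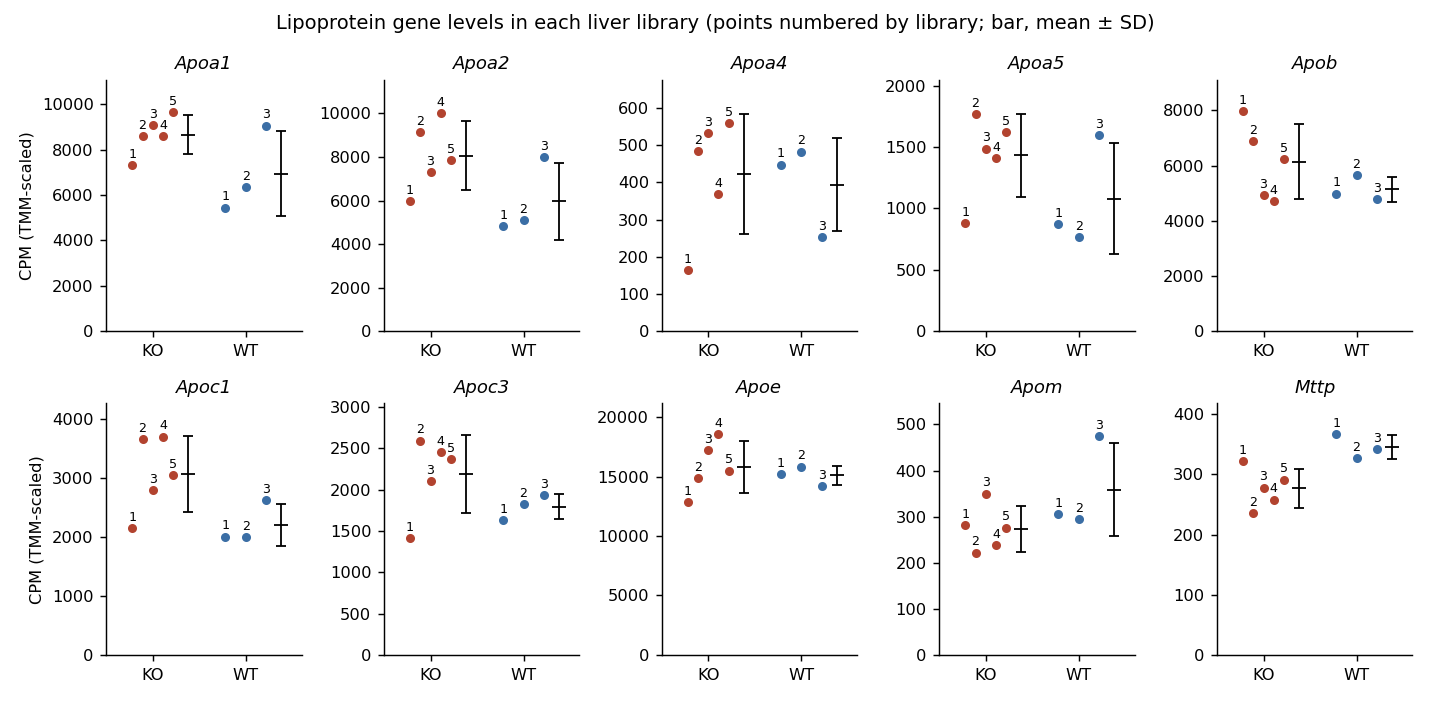
Each panel shows the level of 1 gene in CPM, with numbered points for the 5 Stab1 knock-out libraries (KO, left) and the 3 wild-type libraries (WT, right), and bars for the mean ± SD. Mttp is the member whose genotypes do not overlap, and wild-type library 3 lies among or above the knock-out points for Apoa1, Apoa2, Apoa5 and Apom.

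Among the proteins of high density lipoproteins, Apoa1 encodes apolipoprotein A-I, which activates the enzyme LCAT and accepts cholesterol from ABCA1. Apoa1 was at 7326, 8599, 9094, 8610 and 9670 CPM in Stab1 knock-out libraries 1 to 5, against 5446, 6339 and 9063 CPM in wild-type libraries 1 to 3. Every knock-out library lay above wild-type libraries 1 and 2, and 2 of 5 lay above wild-type library 3, so the groups overlapped. The log2 fold change was 0.32 (SE 0.19, edgeR adjusted p = 0.442). Leaving out wild-type library 3 gave 0.56 (edgeR adjusted p = 0.136), and leaving out library 1 of the same genotype gave 0.17 (edgeR adjusted p = 0.828). Apoa2 encodes apolipoprotein A-II, the second protein of these particles. Apoa2 was at 5964, 9128, 7302, 10018 and 7839 CPM in knock-out libraries, against 4810, 5098 and 8002 CPM in wild-type libraries. The same 2 wild-type libraries were the lowest of all 8, and wild-type library 3 lay within the knock-out range (log2 fold change 0.43, SE 0.22, edgeR adjusted p = 0.401). Without wild-type library 3 it was 0.70 (edgeR adjusted p = 0.138).

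Apom encodes apolipoprotein M, a lipocalin that carries sphingosine-1-phosphate on high density lipoproteins. It ran the other way, at 281, 222, 350, 238 and 276 CPM in Stab1 knock-out libraries 1 to 5 and 306, 295 and 474 CPM in wild-type libraries 1 to 3. Of 5 knock-out libraries, 4 lay below every wild-type library and library 3 did not. The log2 fold change was -0.39 (SE 0.21, edgeR adjusted p = 0.409), and it was -0.14 without wild-type library 3 (edgeR adjusted p = 0.692).

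Apob encodes apolipoprotein B, the structural protein of very low density lipoproteins. Apob was at 7968, 6898, 4922, 4702 and 6235 CPM in Stab1 knock-out livers and 4981, 5662 and 4793 CPM in wild-type livers. The knock-out libraries were spread on both sides of the wild-type ones, and the highest was library 1 (log2 fold change 0.26, SE 0.20, edgeR adjusted p = 0.541). It was 0.14 without knock-out library 1 (edgeR adjusted p = 0.613) and 0.055 with a covariate for the percent of gene length covered (edgeR adjusted p = 0.908). Mttp encodes the large subunit of the transfer protein that loads lipid onto apolipoprotein B. Mttp was at 322, 236, 278, 258 and 291 CPM in knock-out livers, against 367, 328 and 342 CPM in wild-type livers. All 5 knock-out libraries lay below all 3 wild-type libraries, a split in that direction found in 3.61% of tested genes. The difference did not pass the test over all genes (log2 fold change -0.32, SE 0.15, unadjusted p = 0.0528, edgeR adjusted p = 0.366). Exons of Mttp overlap those of Trmt10a and an antisense gene on the opposite strand in GENCODE M21, and without knowledge of strand those reads cannot be told apart.

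Of the apolipoproteins that act on triglyceride-rich particles, Apoc3 encodes an inhibitor of lipoprotein lipase and of particle uptake. Apoc3 was at 1418, 2593, 2107, 2454 and 2371 CPM in Stab1 knock-out livers and 1634, 1821 and 1931 CPM in wild-type livers. Knock-out library 1 was the lowest of all 8 libraries and the other 4 knock-out libraries were the highest (log2 fold change 0.29, SE 0.20, edgeR adjusted p = 0.505). With the coverage covariate it was 0.44 (edgeR adjusted p = 0.453). Apoc1, which encodes a small inhibitor of lipoprotein uptake and of CETP in species that have it, was at 2154, 3660, 2792, 3703 and 3050 CPM in knock-out livers and 2009, 1999 and 2624 CPM in wild-type livers. Again 4 of 5 knock-out libraries lay above every wild-type library and library 1 did not. Its log2 fold change of 0.47 was the highest of the 10 (SE 0.20, unadjusted p = 0.0424, edgeR adjusted p = 0.356).

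Apoa5 encodes apolipoprotein A-V, which promotes lipolysis of triglyceride by lipoprotein lipase. Apoa5 was at 880, 1767, 1488, 1410 and 1625 CPM in Stab1 knock-out livers and 873, 766 and 1599 CPM in wild-type livers. Knock-out library 1 was close to wild-type library 1, and wild-type library 3 was close to knock-out library 5, so that each genotype held libraries at both levels. The log2 fold change was 0.41 (SE 0.29, edgeR adjusted p = 0.502) and reached 0.81 without wild-type library 3 (edgeR adjusted p = 0.148). It was 0.21 without wild-type library 2 (edgeR adjusted p = 0.874).

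Apoa4 encodes apolipoprotein A-IV, a lipid-responsive protein made in intestine and, in mice, also in liver. Apoa4 was at 164, 483, 532, 368 and 559 CPM in Stab1 knock-out livers and 448, 483 and 252 CPM in wild-type livers. Knock-out library 1 was the lowest of all 8 and wild-type library 3 the next lowest (log2 fold change 0.10, with the largest SE of the 10 at 0.36, edgeR adjusted p = 0.909). The sign of this small value turned without knock-out library 5 (-0.025) or wild-type library 3 (-0.14). With the coverage covariate it was 0.74, and 0.68 with that covariate without knock-out library 1 (edgeR adjusted p = 0.434 and 0.203). The covariate was 96.6% in knock-out library 1, 97.28% to 97.73% in the other knock-out libraries and 97.39% to 97.89% in wild-type libraries. It was lowest in the shallowest library and highest in wild-type libraries 1 and 2, so it cannot be fully told apart from depth and genotype. Of 10 intestinal epithelium markers, Sis, Alpi, Cdx1 and Cdx2 were at 0 reads in all 8 libraries. The summed level of that list was 26.2 to 140.2 CPM in knock-out and 38.3 to 74.0 CPM in wild-type livers, most of it from Fabp2. Fabp2 averaged 88.9 CPM in knock-out and 49.9 CPM in wild-type livers, Vil1 1.81 and 0.54 CPM, and Treh 0.70 and 0.98 CPM. Of 3 tested markers 2 had positive log2 fold changes and 0 passed the edgeR or DESeq2 test. Of the 3, 1 was higher with no overlap, as in 3.04% of tested genes. At an unadjusted p of 0.05 in edgeR 1 passed, against 13.6% of all tested genes. Their part in the Apoa4 level was not tested. Exons of Apoa4 and Apoa5 also overlap antisense or unclassified transcripts in GENCODE M21.

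Apoe encodes apolipoprotein E, the ligand by which liver cells take up remnant particles. Apoe was at 12822, 14860, 17259, 18600 and 15499 CPM in Stab1 knock-out livers and 15237, 15833 and 14211 CPM in wild-type livers. The wild-type values lay inside the knock-out range, and the fold change was the closest to 0 of the 10 (log2 fold change 0.07, SE 0.15, edgeR adjusted p = 0.845). It was 0.21 with the coverage covariate (edgeR adjusted p = 0.568). Kupffer cell markers, 12 genes with none at 0, summed to 616 to 893 CPM in knock-out and 524 to 706 CPM in wild-type livers. Of these 12 markers, 0 passed the edgeR or DESeq2 test. At an unadjusted p of 0.05 in edgeR 2 of them passed, against 13.6% of all tested genes. Their part in the Apoe level was not tested.

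**Figure D3:**
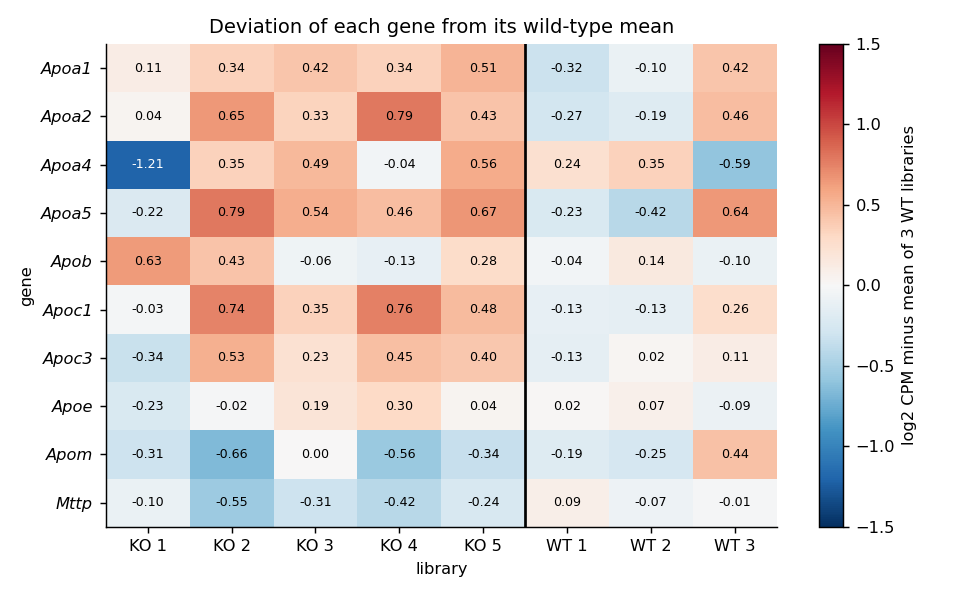
Colours and numbers give log2 CPM of each gene (rows) minus its mean over the 3 wild-type libraries, in each library (columns, Stab1 knock-out left of the line, wild-type right). Knock-out libraries 2 to 5 are positive for Apoa1, Apoa2, Apoa5, Apoc1 and Apoc3 and negative or at 0 for Apom and Mttp, knock-out library 1 has -1.21 for Apoa4, and wild-type library 3 has 0.42 to 0.64 for Apoa1, Apoa2 and Apoa5.

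The members were then compared with one another over the 8 libraries on log2 CPM. Of 45 pairs, 24 had a positive Pearson correlation, and 1 passed an adjusted p of 0.05 in an exact permutation test over 40320 orders. That pair was Apoa2 and Apoc1, on different chromosomes (r = 0.96, exact permutation p = 0.000446, adjusted p = 0.0201 over 45 pairs). Its Spearman rho was 0.90 (exact permutation p = 0.00456, adjusted p = 0.163), and r was 0.94 without the 2 libraries farthest from the median of Apoa2, which were wild-type libraries 1 and 2. Within the chromosome 9 cluster, r was 0.88 for Apoa1 and Apoa5 (exact permutation p = 0.00833, adjusted p = 0.0658, rho = 0.71 with p = 0.0576), and 0.86 without wild-type libraries 1 and 2. It was 0.81 for Apoa5 and Apoc3 (exact permutation p = 0.0220, adjusted p = 0.0974, rho = 0.74 with p = 0.0458), and 0.87 without wild-type libraries 1 and 2. Apoa1 and Apoc3 had r = 0.67 (exact permutation p = 0.0737, adjusted p = 0.237, rho = 0.55 with p = 0.171), and 0.70 without wild-type libraries 1 and 2. Pairs with Apoa4 had lower r, and the differences between correlations were not tested. It was 0.06 for Apoa1 and Apoa4 (exact permutation p = 0.901, adjusted p = 0.943, rho = 0.45 with p = 0.267), and 0.79 without wild-type libraries 1 and 2. Apoa4 and Apoc3 had r = 0.61 (exact permutation p = 0.107, adjusted p = 0.244, rho = 0.52 with p = 0.197), and -0.026 without knock-out library 1 and wild-type library 3. Apoa4 and Apoa5 had r = 0.26 (exact permutation p = 0.558, adjusted p = 0.784, rho = 0.40 with p = 0.327), and 0.20 without the same libraries. For the chromosome 7 neighbours Apoc1 and Apoe, r was 0.46 (exact permutation p = 0.254, adjusted p = 0.532, rho = 0.31 with p = 0.462), and 0.35 without knock-out library 4 and wild-type library 2. Next to Apoa2 and Apoc1 by p came Apoc1 and Apoc3 (r = 0.90, exact permutation p = 0.00342, adjusted p = 0.0658, rho = 0.88 with p = 0.00724). Then came Apoc1 and Mttp (r = -0.89, exact permutation p = 0.00518, adjusted p = 0.0658, rho = -0.83 with p = 0.0154). All pairs share the same libraries, their depth and their scaling. Both genotypes were pooled and permuted together, so each r and p includes any difference between genotypes, and its part was not tested. Apoa2 and Apoc1, at 521 and 515 bases, also share the shortest length class, whose shift between libraries is given below. The part of that shift in these correlations was not tested.

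Apob and Mttp act at the same step, so the ratio of their RPKM was compared within each library. It was 7.60, 8.98, 5.43, 5.59 and 6.57 in Stab1 knock-out libraries 1 to 5, against 4.17, 5.30 and 4.29 in wild-type libraries 1 to 3. The groups did not overlap, with the lowest knock-out ratio at 5.43 and the highest wild-type ratio at 5.30. Over the 56 divisions of the libraries the exact two-sided permutation p was 0.0357, and 0.286 after adjustment over 8 such ratios. So few divisions set a floor under p, and a ratio that stood alone could not pass the threshold used above after this adjustment. The adjusted value therefore cannot decide whether the ratio of Apob to Mttp differed between genotypes. The other 7 ratios, among them Apoa1 to Apob, Apoa2 to Apoa1 and Apoc1 to Apoe, overlapped between genotypes. Apoa1 to Apob averaged 20.6 ± 5.53 in knock-out (SD, n = 5) and 19.0 ± 6.30 in wild-type livers (SD, n = 3).

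Gene length moved with these fold changes over the whole table. Among 195 tested genes of up to 600 bases, which include Apoa2, Apoc1 and Apoc3 at 521, 515 and 524 bases, the median log2 fold change was 0.50 and 92.8% were positive. Among the 57 of them with a mean of at least 100 CPM the median was 0.44. Among 1897 genes of 601 to 1500 bases, which include Apoa1, Apoe and Apom, the median was 0.23. The 4434 genes of 3001 to 6000 bases, Mttp among them, had a median of -0.11, and the 1309 longer genes, Apob among them, had -0.15. Thus Apoa2, Apoc1 and Apoc3 lay below the median of their length class, but Apoc1 at 0.47 lay above that of its abundant genes. Apoa1, Apob, and Apoa4 and Apoa5 in a class with a median of 0.01 lay above theirs. Apoe, Apom and Mttp lay below theirs.

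**Figure D4:**
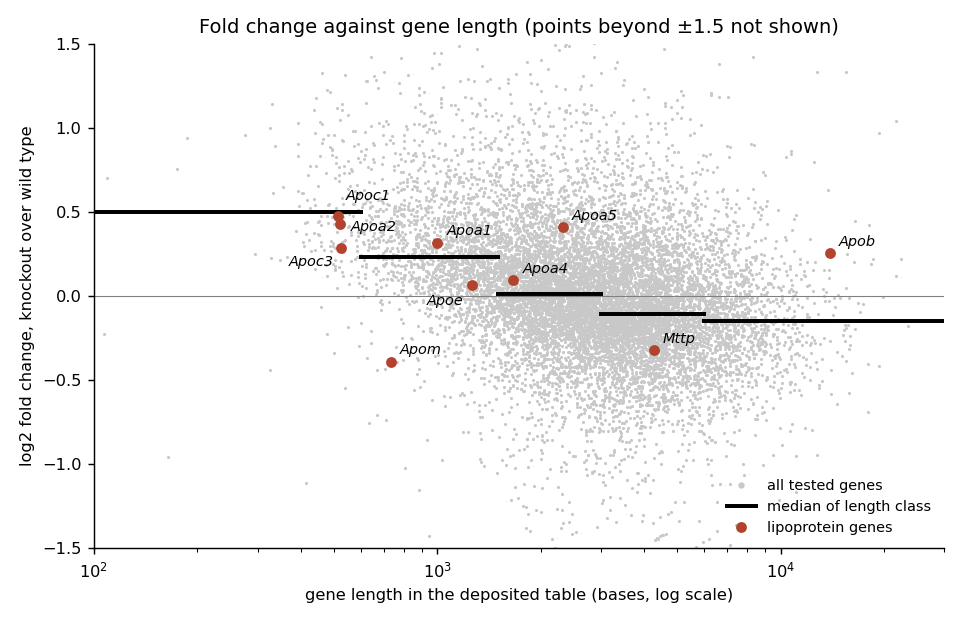
Grey points are the 12338 tested genes, with gene length in bases on a log axis and log2 fold change of Stab1 knock-out over wild type on the other, and black lines are medians of 5 length classes. Red points are the 10 lipoprotein genes, with Apoa2, Apoc1 and Apoc3 under the line of the shortest class and Apoa1, Apoa4, Apoa5 and Apob above the lines of theirs.

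With an offset for gene length in each library, an alternative chosen after seeing the data, the median log2 fold change of the members was -0.018. It was then -0.018 for Apoa2, -0.013 for Apoc1, -0.22 for Apoc3 and 0.10 for Apoa1. Apoa5 (0.40), Apob (0.37), Apom (-0.68) and Mttp (-0.22) kept their sign, and 0 members passed the edgeR test (Apom adjusted p = 0.380). The shift with length was also seen inside the wild-type group. Genes of up to 600 bases had a median deviation from the wild-type mean of 0.40 in wild-type library 3, and of -0.18 and -0.19 in wild-type libraries 1 and 2. In knock-out libraries 1 to 5 it was 0.09, 0.79, 0.31, 0.61 and 0.72.

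Single libraries also moved the fits. Without knock-out library 1, log2 fold changes were 0.57 for Apoc1 (edgeR adjusted p = 0.0879), 0.40 for Apoc3 (edgeR adjusted p = 0.114) and -0.39 for Mttp (edgeR adjusted p = 0.122), and 0 members were called. DESeq2 was also run without that library, which was decided once the data had been seen, and it called Apoc1 (adjusted p = 0.0219) and Apoc3 (adjusted p = 0.0474) higher, 2 of 10 members, where it called 5.52% of 12280 genes higher. With the length offset and without that library, the log2 fold changes were -0.00079 for Apoc1 and -0.18 for Apoc3. The number of genes called over the whole table was 28 with all libraries. Leaving out knock-out library 1 gave 114. Leaving out a wild-type library gave 15 for library 1, 13 for library 2 and 93 for library 3.

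**Figure D5:**
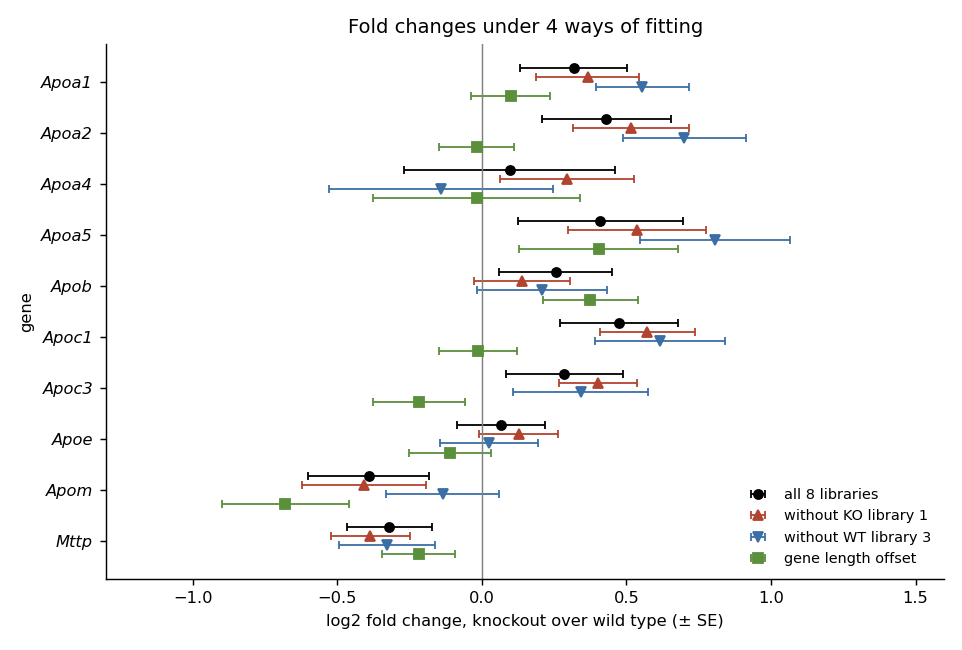
Log2 fold changes of Stab1 knock-out over wild type with their SE are drawn for each gene with all 8 libraries, without knock-out library 1, without wild-type library 3 and with the gene length offset. Apoa2, Apoc1 and Apoc3 are positive in the first 3 fits and at -0.018, -0.013 and -0.22 with the offset, while Apom and Mttp are negative in all 4.

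Other genes of the pathway were counted from 6 lists, and 0 genes of any list passed the edgeR test over all genes. Genes past an unadjusted p of 0.05 in edgeR are counted for each list, where 13.6% of all tested genes passed it. DESeq2 called 1 gene in each of 2 lists, and Usf1 is described with its own. Of 12 tested other apolipoprotein genes, 9 had positive log2 fold changes (median 0.11) and 2 passed an unadjusted p of 0.05. Apoc4, next to Apoc1 on chromosome 7, averaged 1096 ± 308 CPM in Stab1 knock-out and 682 ± 192 CPM in wild-type livers (log2 fold change 0.69, SE 0.27, edgeR adjusted p = 0.341). It has 518 bases and so belongs to the shortest class, and its log2 fold change was 0.21 with the gene length offset (edgeR adjusted p = 0.589). DESeq2 without knock-out library 1 called it (0.83, adjusted p = 0.00616). The mitochondrial protein gene Apoo had a log2 fold change of 0.80 (edgeR adjusted p = 0.340) and the interferon-inducible Apol9a 0.44 (edgeR adjusted p = 0.368). DESeq2 without knock-out library 1 also called Apoo (adjusted p = 0.0411). Of the genes named in the lists that follow, it called Pnpla3, Lpl, Srebf2 and Usf1 (adjusted p = 0.0164, 0.00185, 0.0214 and 0.00812). That fit called 1057 genes over the whole table, 678 higher and 379 lower in knock-out livers.

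Assembly and secretion genes, 38 tested, had a median log2 fold change of -0.05, with 16 positive and 3 past an unadjusted p of 0.05. Ces1d, a hydrolase that releases stored triglyceride for particle assembly, was at 391, 659, 555, 597 and 574 CPM in Stab1 knock-out livers and 715, 685 and 1024 CPM in wild-type livers. Its genotypes did not overlap, with knock-out lower, as in 3.61% of tested genes (log2 fold change -0.54, SE 0.20, edgeR adjusted p = 0.334). Without wild-type library 3 it was -0.33 (edgeR adjusted p = 0.338). Pnpla3, a lipid droplet protein, had -1.41 (edgeR adjusted p = 0.301), and Pla2g12b, which in mice is needed for full lipid loading of these particles, had 0.39 (edgeR adjusted p = 0.356), or 0.18 with the length offset.

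Genes that remodel particles in plasma, 14 tested, had a median of 0.02, with 7 positive and 2 past an unadjusted p of 0.05. Lpl, lipoprotein lipase, averaged 126.7 ± 32.0 CPM in Stab1 knock-out and 70.2 ± 23.3 CPM in wild-type livers (log2 fold change 0.85, SE 0.26, edgeR adjusted p = 0.325). The endothelial lipase gene Lipg had -0.68 (edgeR adjusted p = 0.356), or -0.16 without wild-type library 3, which held 35.0 CPM against 17.0 and 13.3 CPM in the other wild-type libraries. Angptl8, which encodes a regulator of lipoprotein lipase inhibition, had 1.023 (edgeR adjusted p = 0.406). It was 0.58 without knock-out library 4, 0.54 with the coverage covariate and 0.16 with that covariate without knock-out library 1. Lipoprotein receptor genes and their regulators, 13 tested, had a median of -0.05, with 4 positive and 3 past an unadjusted p of 0.05. Sdc1, a heparan sulfate proteoglycan that binds remnant particles, had -0.62 (edgeR adjusted p = 0.332) and passed without wild-type library 3 (-0.87, edgeR adjusted p = 0.0333).

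Transcription factors of these genes, 27 tested, had a median of -0.09, with 11 positive. Of these 27, 7 passed an unadjusted p of 0.05, 6 lower and 1 higher in knock-out livers. Of all 12338 tested genes 13.6% passed it, 728 lower and 954 higher. Of the 27, 2 were lower and 1 was higher with no overlap, splits found in 3.61% and 3.04% of tested genes. Usf1, a helix-loop-helix factor and the higher one, was at 29.5 to 38.9 CPM in Stab1 knock-out and 22.3 to 24.4 CPM in wild-type livers with no overlap, a split in that direction found in 3.04% of tested genes (log2 fold change 0.54, SE 0.13, edgeR adjusted p = 0.249). DESeq2 called it with all libraries (adjusted p = 0.0351). Srebf2, the regulator of sterol genes, had -0.58 (edgeR adjusted p = 0.332). Of 6 genes tied to editing of Apob mRNA, which makes the short apolipoprotein B-48, the median was -0.14, with 2 positive. Of these 6, 3 passed an unadjusted p of 0.05, against 13.6% of all tested genes. A1cf, the complementation factor of that editing, had -0.60 (edgeR adjusted p = 0.350), or -0.34 without wild-type library 1 and -0.23 with the coverage covariate without knock-out library 1. In the same list, Khsrp had -0.44 (edgeR adjusted p = 0.350) and Celf2 had 0.56 (edgeR adjusted p = 0.333).

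The genes whose log2 CPM followed the mean of the 10 members most closely over the 8 libraries were Txnrd2 (r = 0.99), Casp6 (r = 0.98) and Lipc (r = 0.98). These are the top values among all other tested genes and are a description. Lipc, hepatic lipase, was at 206, 360, 363, 344 and 336 CPM in Stab1 knock-out livers and 221, 225 and 317 CPM in wild-type livers. Like several members, it was low in knock-out library 1 and wild-type libraries 1 and 2 and higher in the other 5 (log2 fold change 0.34, SE 0.22, edgeR adjusted p = 0.474). Of the other cell types that whole liver can hold, sinusoidal endothelial markers summed to 325 to 409 CPM in knock-out and 422 to 552 CPM in wild-type livers. Stellate cell markers summed to 318 to 496 CPM in knock-out and 458 to 506 CPM in wild-type livers. Cholangiocyte markers summed to 86.8 to 151 CPM in knock-out and 87.0 to 98.0 CPM in wild-type livers. Log2 fold changes were negative in 9 of 10 tested stellate markers and positive in 4 of 7 tested cholangiocyte markers. In either list 0 passed the edgeR or DESeq2 test. Erythroid markers summed to 161 to 535 CPM in knock-out and 129 to 159 CPM in wild-type livers. Hbb-bs averaged 217 CPM in knock-out and 80.9 CPM in wild-type livers, while Alas2 had its highest count, 787 reads, in knock-out library 1. Log2 fold changes were negative in 11 of 12 tested endothelial markers and positive in 8 of 8 tested erythroid markers. In either list 0 passed the edgeR or DESeq2 test. At an unadjusted p of 0.05 in edgeR 3 of each list passed, against 13.6% of all tested genes. Adipose and mesothelial markers, with Plin1 at 0, summed to 5.48 to 20.01 CPM in knock-out and 4.11 to 7.74 CPM in wild-type livers. Most of it came from Upk3b, at a mean of 7.31 and 2.22 CPM, and Msln, at 5.75 and 2.88 CPM. Of 2 tested markers 2 had positive log2 fold changes and 0 passed the edgeR or DESeq2 test. At an unadjusted p of 0.05 in edgeR 2 passed, against 13.6% of all tested genes. The part of these cell types in the levels of the members was not tested.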

How the data were processed

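Libraries were grouped by their titles into 5 Stab1 knock-out and 3 wild-type libraries. The authors deposited 1 gene table that gives, per the file headers, a count of uniquely mapped reads, the percent of gene length covered and an RPKM value for each gene and library. Libraries were made at BGI from column-purified RNA, per the labels' protocols. Not given in the sources used here: aligner, counter, build, annotation and strandedness. The deposited RPKM equal the counts divided by gene length and column total within rounding, so the counts were tested and RPKM served to compare genes. A dash was read as 0, and reads of 113 identifiers on 229 of 19464 rows were summed. A count of 3 reads, the limit that 0 allows, would be 0.619 CPM in knock-out library 1 and 0.278 to 0.335 CPM in the others. Intervals and floors cover counting error only.

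In R 4.3.3, edgeR 4.0.16 was run with filterByExpr, TMM scaling and the quasi-likelihood test of knock-out over wild type, with no covariate. The SE of a log2 fold change is its size divided by the root of F, and log2 CPM used a prior count of 2. The steps were tested on simulated counts. Correlations and RPKM ratios were tested by exact permutation. Gene names of lists were matched to the table (206 of 208 entries, of which 3 by the symbol and 1 by a synonym in the RefSeq table of GRCm38.p6). Named genes are the 10 members, called genes and the 3 genes of smallest p in each related list, and the 3 genes most correlated with the members, except that some genes the rule names are not reported here. Lists and tests, like the members, were chosen with earlier results of these data known. Alternatives were other scaling, no filter, DESeq2 1.42.0, each library left out in turn, a block on replicate number, and a coverage covariate, the median percent covered over 1387 genes with at least 500 reads in every library. Added after seeing the data were a gene length offset, a spline with 3 degrees of freedom per library, and DESeq2 and that offset without knock-out library 1. Figures were drawn with matplotlib 3.10.9.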

Additional observations from a re-analysis of the deposited data

Results flagged for a closer look

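In the group of 5 Stab1 knock-out libraries, library 1 lay far from the nearest other library for 3 of 29 sets of values looked at, by more than 0.71 of the range. Chance flags about 1 in 20 independent groups, but these 3 genes were picked because they follow the mean of the members, which is lowest in that library, so they are 1 pattern and their number is not to be read against that share. Txnrd2 was at 31.5 CPM, Casp6 at 18.4 CPM and Lipc at 206 CPM in library 1, each the lowest of its group. None of the 10 lipoprotein genes stood apart in this way in that group. Groups of 3 wild-type libraries were not examined for it.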

How the results depend on the processing

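The number of members called was 0 under every alternative but DESeq2 without knock-out library 1, where it was 2. The number of genes called over the whole table, 28, was 13 to 114 with 1 library left out, 134 with DESeq2, 1057 with DESeq2 without knock-out library 1, 15 with the coverage covariate, 43 with that covariate without knock-out library 1 and 75 with the gene length offset without knock-out library 1. The median log2 fold change of the members, 0.27, was 0.21 to 0.33 with 1 library left out, -0.018 with the length offset and -0.0099 with the offset without knock-out library 1. Signs turned with the length offset for Apoa2 (-0.018), Apoa4 (-0.018), Apoc1 (-0.013), Apoc3 (-0.22) and Apoe (-0.11), and with the offset without knock-out library 1 for Apoa2 (-0.019), Apoc1 (-0.00079), Apoc3 (-0.18) and Apoe (-0.084). The offset removes the trend of fold change with length by its construction. Apoa4 ran from -0.14 to 0.29 with 1 library left out and was 0.74 with the coverage covariate. The labels do not say that libraries with the same replicate number are paired. Deviations of libraries 1, 2 and 3 of both genotypes correlated at 0.12, -0.15 and -0.15. Library pairs with different numbers ran from -0.28 to 0.31, so these values cannot decide whether libraries were paired. With replicate numbers as a block, in which knock-out libraries 4 and 5 add nothing to the contrast, 8 genes and 0 members were called, and Apoa4 (-0.11) and Apoe (-0.020) turned sign. Of 180 values of the members under alternatives, 165 kept their direction and side of the threshold, 13 turned sign and 2 passed it. The causes were not tested. Every member held at least 840 reads in each library.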
